A study of Mus musculus with 48 samples.

Results

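Serotonin acts on a family of receptors encoded by separate genes, and this account covers 10 of them in the shell of the nucleus accumbens: Htr1a, Htr1b, Htr1d, Htr1f, Htr2a, Htr2c, Htr3a, Htr4, Htr6 and Htr7. The members were the rows of the deposited gene table that map to these listed symbols, which gave 10 of 37620 genes. Another 4 serotonin receptor genes of the table (Htr2b, Htr3b, Htr5a and Htr5b) were kept aside as a comparison list.

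The study measured poly(A) RNA by sequencing in laser-microdissected accumbens shell from mice of the heterogeneous stock-collaborative cross (HS-CC), a genetically mixed laboratory stock, selected over 4 generations for ethanol preference. The High line gave 12 females and 12 males and the Low line as many, with 1 library per mouse; High and Low name the direction of selection for ethanol preference. All 48 mice shared strain, tissue and generation. Each direction of selection was 1 population in the sources used here, and families, litters and ages were not given, so each p-value rests on differences among these mice alone.

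Serotonin reaches the accumbens shell in axons of midbrain raphe neurons, and most neurons of the shell are spiny projection neurons that receive this input. The Htr1 receptors couple to Gi/o proteins and lower cyclic AMP. The Htr2 receptors couple to Gq and phospholipase C, the product of Htr3a is a subunit of a serotonin-gated cation channel, and the Htr4, Htr6 and Htr7 receptors couple to Gs and raise cyclic AMP.

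The transcript that carried most of the receptor signal was Htr2c, and most of that signal lay in its last exon. Htr2c transcripts are known for adenosine-to-inosine editing, which changes the intracellular loop that meets the G protein. They are also known for alternative splicing of 1 coding exon, the one that holds the editing sites. That exon is shown because the deposited exon values for Htr2c are read against it below. It is exon 5 of 6 of the annotated GENCODE M21 transcript (GRCm38, chrX:147169570-147169770, plus strand, 201 bases). Capitals mark bases 107 to 201, the 95 bases that are absent from a shorter annotated transcript and that hold the known editing sites.
Htr2c: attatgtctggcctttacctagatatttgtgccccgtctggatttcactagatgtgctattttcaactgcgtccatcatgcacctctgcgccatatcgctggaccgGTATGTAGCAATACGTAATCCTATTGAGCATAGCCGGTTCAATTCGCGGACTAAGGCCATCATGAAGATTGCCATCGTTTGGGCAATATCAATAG

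Another trio, Htr1b, Htr2a and Htr6, varied together from mouse to mouse. None of their pairs stayed related once the share of each library's value in last exons was also removed (below). The 250 bases before their annotated starts are shown because of the joint variation (RefSeq, GRCm38.p6, each written 5′ to 3′ on the strand of its gene). Htr1b lies at chr9:81633833-81634082 on the minus strand, Htr2a at chr14:74640624-74640873 on the plus strand, and Htr6 at chr4:139075571-139075820 on the minus strand (the first of its 2 entries). Capitals mark matches, on either strand, to GGGCGG, the core of the GC box.
Htr1b: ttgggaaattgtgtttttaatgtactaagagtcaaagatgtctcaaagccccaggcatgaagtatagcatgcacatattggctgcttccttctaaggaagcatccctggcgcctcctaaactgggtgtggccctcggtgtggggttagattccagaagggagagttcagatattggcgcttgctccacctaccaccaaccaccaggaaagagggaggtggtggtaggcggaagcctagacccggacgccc
Htr2a: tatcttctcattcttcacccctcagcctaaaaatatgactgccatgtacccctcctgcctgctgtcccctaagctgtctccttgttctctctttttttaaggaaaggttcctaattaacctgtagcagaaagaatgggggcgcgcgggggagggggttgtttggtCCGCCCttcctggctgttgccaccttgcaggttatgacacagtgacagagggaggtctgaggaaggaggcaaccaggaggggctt
Htr6: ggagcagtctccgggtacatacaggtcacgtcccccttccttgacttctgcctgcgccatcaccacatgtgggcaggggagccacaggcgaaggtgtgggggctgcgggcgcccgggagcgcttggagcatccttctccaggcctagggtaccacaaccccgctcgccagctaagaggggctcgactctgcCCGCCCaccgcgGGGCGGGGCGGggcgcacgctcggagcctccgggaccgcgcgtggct
The GC-box core occurred 3 times in the Htr6 entry shown, with 2 of the matches overlapping by 1 base, and it was not found in the other Htr6 entry. It occurred 1 time before Htr2a and was not found before Htr1b. Of the 32851 promoter windows in the RefSeq table, 32.7% held it. The TATA-box letters TATAAA, also searched on both strands, occurred in none of the 3 windows shown and in 12.4% of all windows. The same held for the E-box CACGTG, which 6.02% of all windows held, and for the cyclic AMP response element TGACGTCA, with 1.55%.

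The deposited values are normalised counts rounded to whole numbers, and library totals ran from 13579559 to 14561911. Markers of spiny neurons were high in every library: Drd1, the dopamine receptor of direct-pathway cells, ran from 1909 to 3607. Most listed markers of serotonergic neurons were near 0. Tph2, the brain's serotonin-synthesising enzyme, had 0 to 11, and Slc6a4, the serotonin transporter, had 0 to 5. Fev had 0 to 1 and Gata3 had 0 to 2, but Slc18a2 of the same list had 85 to 172. Some libraries stood apart in ways that touch the receptors. Slc17a7, a marker of cortical pyramidal neurons, had a median of 15.5 but reached 3886, and Low male 6, High male 1 and High male 10 had the highest means of the pyramidal marker list. The percent of a library's exon value that lay in last exons, a measure of how far reads were gathered at the 3′ ends of transcripts, ran from 44.9% in High male 1 to 58.4% in Low male 12. That percent averaged 53.2% ± 2.71 in High mice and 52.8% ± 2.48 in Low mice (SD, n = 24 each).

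Levels of different receptors were compared per kb of listed exon, in ppm (1 ppm is 14.06 deposited units). Htr2c stood far above the rest at 13.6 ± 2.13 ppm per kb (SD, n = 48 mice), and it exceeded the next gene in 48 of 48 mice. Htr6 followed at 3.81 ± 0.77, Htr1d at 3.29 ± 0.69, Htr4 at 2.44 ± 0.66 and Htr1b at 2.41 ± 0.95 ppm per kb. Within this middle group no neighbours differed by more than the spread of their difference over mice; Htr4 exceeded Htr1b in 25 of 48 mice. Htr7 lay at 1.17 ± 0.28 and Htr1a at 0.88 ± 0.24 ppm per kb, apart by less than the spread of their difference, and the step from Htr1b down to Htr7 was larger than its spread (mean log2 difference 0.98, SD 0.60). The lowest levels were those of Htr1f at 0.54 ± 0.19, Htr3a at 0.48 ± 0.28 and Htr2a at 0.42 ± 0.25 ppm per kb, which could not be put in order against each other. In all, 3 of 9 neighbouring steps exceeded their spread: below Htr2c, below Htr1b and below Htr1a.

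**Figure D1:**
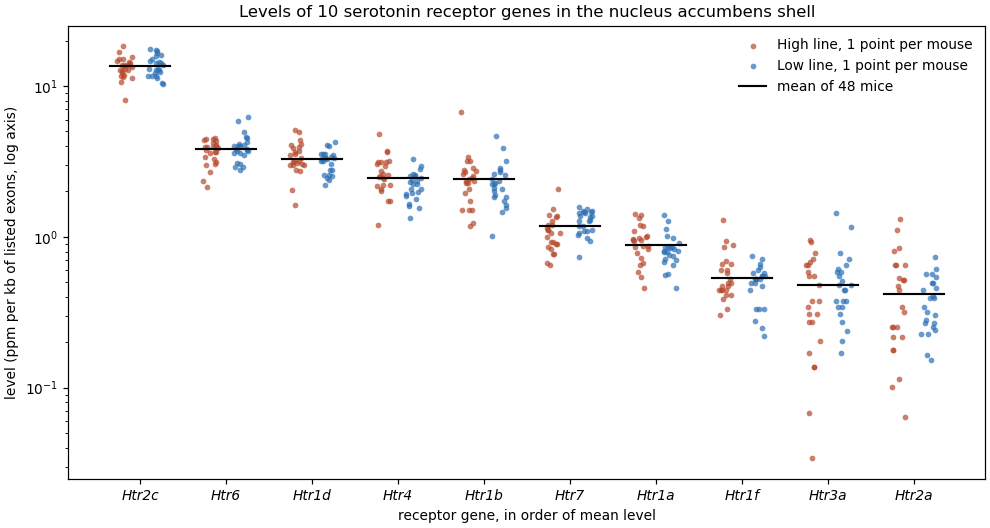
Level of each receptor gene in ppm per kb of listed exon, on a log axis, with 1 point per mouse (High line left of Low line, 24 mice each) and a bar at the mean of 48 mice. Htr2c lies above every other receptor in all mice, and the clouds of the High and Low lines overlap for all 10 genes.

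The order depended little on which exons were read. With the last listed exon alone, Htr2c was at 35.0 ± 5.41 ppm per kb and Htr6 at 5.96 ± 1.32, and the first 7 ranks were unchanged. Htr3a and Htr1f exchanged ranks 8 and 9. On this scale the steps larger than their spread were below Htr2c, below Htr6 and below Htr7. Htr2c made up 46.7% of the summed level of the 10 genes per kb of listed exon and 63.7% per kb of last exon. Lengths came from GENCODE M21 exons matched to the deposited exon starts. For Htr1a no annotated exon matched, so its annotated length was used, and for Htr1b the counted exon was the coding one, with the annotated 3′ end a further 3052 bases on. The levels of both are therefore uncertain. For Htr4 the farthest annotated 3′ end lay 28771 bases along the genome beyond its last listed exon. Its annotated exons span 4908 bases against 4661 listed, so its level and its last-exon share are uncertain too.

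In receptors with more than 1 listed exon, most of the value lay in the last exon, often also the longest. The last exon held 99.1% of the value of Htr1d (2652 of 3201 listed bases) and 97.1% of Htr2c (3509 of 9328). It held 90.4% of Htr4 (3373 of 4661), 87.0% of Htr1f (2241 of 2579) and 82.8% of Htr7 (1666 of 3399). Lower shares were those of Htr2a (73.1%, 3900 of 5606), Htr3a (57.5%, 795 of 2082) and Htr6 (50.6%, 756 of 2341). Without these lengths the shares do not measure how far reads gathered at 3′ ends. For Htr2c the last exon (start 143628312 on mm9) had 1047 to 2351 per mouse, while all exons before it summed to a median of 45.5, with a range of 8 to 192. The 201-base exon printed above (start 143604113 on mm9) had a mean of 15.6, with a range of 2 to 56. The edited and spliced part of Htr2c was thus covered about as thinly as a weakly expressed gene, and neither editing nor the use of the 95 bases in capitals can be read from these tables.

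All 10 receptors reached 1 ppm in at least 12 libraries and were tested. Htr3a did so in 20 of 48 libraries, 8 of 24 from females and 12 of 24 from males, and Htr1f in 39 and Htr2a in 41. The other members did so in 48 of 48. Of the receptors set aside, Htr5a ran from 24 to 119 with a median of 65, Htr5b from 0 to 26, Htr2b from 0 to 3 and Htr3b from 0 to 2. Htr3b encodes the partner subunit of the channel formed with Htr3a. In bulk tissue, fewer cells of a type and less RNA per cell cannot be told apart.

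The main comparison asked whether receptor transcripts differed between the lines. No receptor was called between High and Low mice at an adjusted p under 0.05 (limma, Benjamini-Hochberg over 15350 genes, of which 0.28% were called). At an unadjusted p under 0.05 there were 2 receptors, Htr4, with higher values in High mice, and Htr7, with lower values in High mice. That is 2 of 10 members against 9.07% of all genes tested. Of the 10 log2 differences, 6 were above 0 and 4 below, with a median of 0.05 beside -0.003 over all genes tested. Oligodendrocyte markers also moved with line: all 7 had lower means in High mice, 6 of them at an unadjusted p under 0.05, none was called, and their summed value had a median of 15599 (8737 to 23605) in High mice and 19102.5 (12878 to 24231) in Low mice. The 5 markers of somatostatin, NPY and nitric oxide interneurons also had lower means in High mice, and 1 of them was called: the neuropeptide gene Sst averaged 1772 ± 388 in High mice and 2360 ± 542 in Low mice (SD, n = 24 each; log2 difference -0.40 ± 0.09 SE, adjusted p = 0.0233 by limma). Their summed value had a median of 3357.5 (2189 to 5187) in High mice and 4061.5 (2728 to 5792) in Low mice. All 7 direct-pathway markers had higher means in High mice (2 at an unadjusted p under 0.05; summed median 28445, 22272 to 32119, in High mice and 26569.5, 20429 to 32062, in Low mice). All 6 indirect-pathway markers tested had lower means in High mice (1 at an unadjusted p under 0.05; summed median 41903, 32016 to 49804, in High mice and 41990.5, 33774 to 53269, in Low mice). All 6 astrocyte markers had higher means in High mice (1 at an unadjusted p under 0.05; summed median 9147, 6521 to 11381, in High mice and 8395.5, 6849 to 11267, in Low mice). The part of these lists in the receptor differences was not tested; for the oligodendrocyte list, the values with its mean as a covariate are given beside Htr4 and Htr7.

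**Figure D2:**
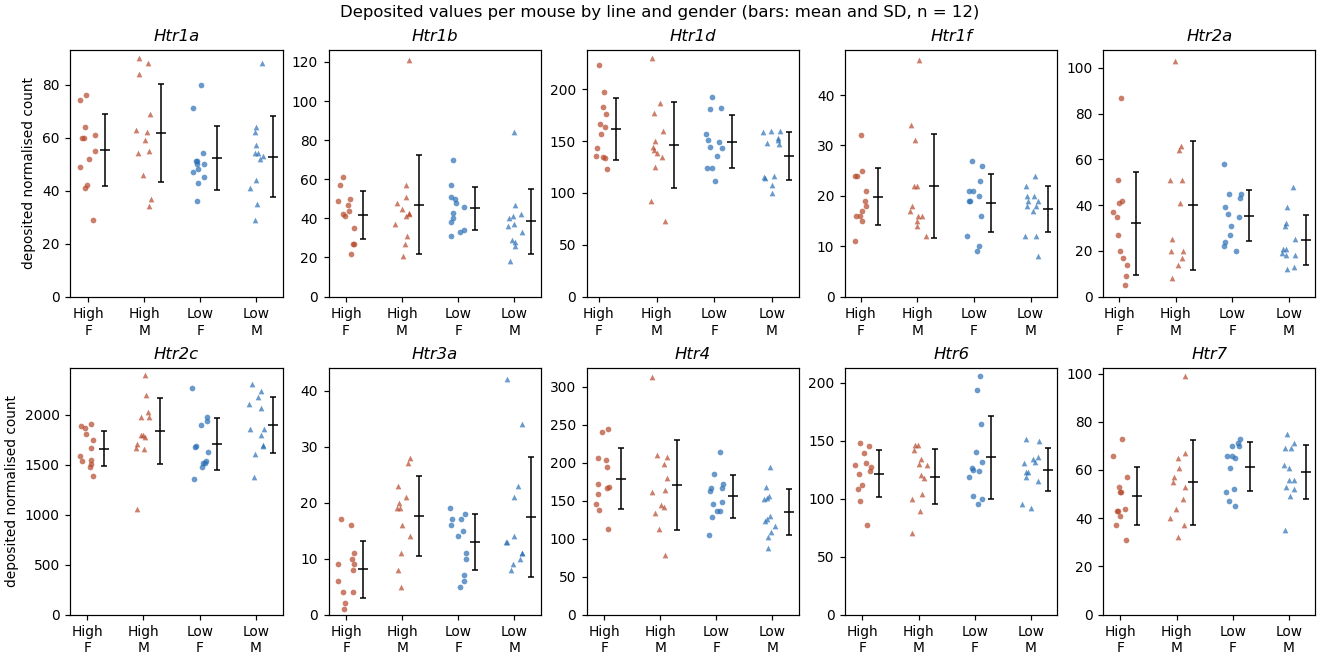
Deposited normalised count of each receptor gene per mouse in females and males of the High line and then of the Low line, with the mean and SD of each group (n = 12); every axis starts at 0. Groups overlap in every panel, and High female values of Htr3a sit low, between 1 and 17.

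Among the Gi/o-coupled receptors, Htr1a encodes the receptor that also serves as autoreceptor on serotonergic cell bodies. Htr1a (chromosome 13) had 29 to 76 with a median of 57.5 in High females, against 36 to 80 with a median of 50 in Low females. In High males it had 34 to 90 with a median of 60.5, against 29 to 88 with a median of 53.5 in Low males. The ranges overlapped almost wholly, and the line difference was 0.13 ± 0.10 on the log2 scale (SE, p = 0.205, adjusted p = 0.76).

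Htr1b encodes a receptor of axon terminals, on serotonergic axons and on the terminals of spiny neurons. It lies on chromosome 9 with 1 listed exon (start 81524950 on mm9). Values were 22 to 61 with a median of 43 in High females, against 31 to 70 with a median of 44.5 in Low females, and 21 to 121 with a median of 42.5 in High males, against 18 to 84 with a median of 36.5 in Low males. The value of 121 was that of High male 1, the library with the lowest last-exon percent, and without it the line difference of 0.05 ± 0.12 became -0.009 (p = 0.667 with all mice by limma, and 0.938 without it). An antisense gene, D430036J16Rik, shares exon bases with Htr1b, and the strand setting of the counts is not given in the sources used here, so reads of both could not be told apart.

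Htr1d, a terminal receptor closely related to Htr1b, had 123 to 223 with a median of 160.5 in High females, against 111 to 192 with a median of 146.5 in Low females, and 73 to 230 with a median of 142.5 in High males, against 100 to 160 with a median of 147.5 in Low males. High males held both the lowest and the highest of the 48 values. The line difference of Htr1d was 0.08 ± 0.08 on the log2 scale (SE, p = 0.322). Htr1f had 11 to 32 with a median of 18.5 in High females and 9 to 27 with a median of 19.5 in Low females; it had 12 to 47 with a median of 17.5 in High males and 8 to 24 with a median of 18.5 in Low males. Medians were lower by 1 in High mice in each gender, and 10 of 24 High mice exceeded the median of Low mice. The line difference in mean log2 values went the other way, at 0.14 ± 0.10 (SE, adjusted p = 0.741 by limma). The highest value, 47, was that of High male 9.

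Of the Gq-coupled pair, Htr2c (chromosome X) had 1392 to 1913 with a median of 1631 in High females, against 1360 to 2270 with a median of 1650 in Low females. High males had 1060 to 2405 with a median of 1799.5, against 1376 to 2309 with a median of 1859 in Low males. The lines overlapped throughout, and the line difference of -0.04 ± 0.06 had an interval of -0.17 to 0.08 (2 SE). Htr2c was thus the receptor whose line difference was best bounded, since its mice varied least, with a coefficient of variation of 15.7% over 48 mice.

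Htr2a, the receptor on which classical hallucinogens act, varied most among mice, with a coefficient of variation of 60.0%. It had 5 to 87 with a median of 31 in High females, against 20 to 58 with a median of 35.5 in Low females. High males had 8 to 103 with a median of 33, against 12 to 48 with a median of 21 in Low males. In both genders the High mice reached lower and higher values than the Low mice did. The mean absolute deviation from the group median was 0.71 in High mice and 0.33 in Low mice on the log2 scale (difference 0.38 ± 0.13 SE, unadjusted p = 0.00306, adjusted p = 0.892 by limma). Htr2a was the 1 receptor of 10 with an unadjusted p under 0.05 for variability; beside 3.97% of all genes; none was called, and 0.0586% of all genes were. The line difference of Htr2a itself was 0.06 ± 0.19, and it was -0.01 without High male 1, which had the value of 103.

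Htr3a encodes the channel subunit, known in cortex as a marker of interneurons born in the caudal ganglionic eminence. It lies on chromosome 9 (listed exons from 48707319 to 48719004 on mm9). Values were 1 to 17 with a median of 8.5 in High females, against 5 to 19 with a median of 14.5 in Low females, and 2 of 12 High females lay above the Low female median. In males they were 5 to 28 with a median of 19 in High mice, against 8 to 42 with a median of 13 in Low mice. The line difference was -0.43 ± 0.19 in females (p = 0.0313, adjusted p = 1 by limma) and 0.05 ± 0.19 in males (p = 0.796). These 2 effects differed by -0.48 ± 0.27 (p = 0.0861, adjusted p = 1), so a difference between the genders was not established.

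Among the Gs-coupled receptors Htr4, which is found on spiny neurons, had the largest positive line difference of the 10 genes. It had 113 to 244 with a median of 170 in High females, against 105 to 214 with a median of 155 in Low females. High males had 79 to 313 with a median of 162.5, against 87 to 194 with a median of 128 in Low males. The ranges overlapped, and 16 of 24 High mice exceeded the median of Low mice. Htr4 averaged 175 ± 49.7 in High mice and 145 ± 30.8 in Low mice (SD, n = 24 each), a log2 difference of 0.23 ± 0.10 (SE), or 1.18-fold, with an unadjusted p of 0.0222 and an adjusted p of 0.428 by limma. Permuting line labels within gender gave p = 0.0244 (two-sided, 100000 resamples). The difference was 0.27 (p = 0.0142) with the oligodendrocyte marker mean as a covariate, 0.25 (p = 0.00989) with the last-exon percent as a covariate, and 0.20 (p = 0.0467) without the 3 libraries highest in pyramidal markers.

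Htr6, a receptor concentrated in striatum, had the same median of 125.5 in High and in Low mice. Its range was 77 to 148 in High females, against 95 to 206 in Low females, and 70 to 146 in High males, against 92 to 151 in Low males. The line difference was -0.11 ± 0.08 on the log2 scale (SE, p = 0.194, adjusted p = 0.75 by limma).

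Htr7 lies on chromosome 19. It had 31 to 73 with a median of 47.5 in High females, against 45 to 73 with a median of 65.5 in Low females. High males had 32 to 99 with a median of 54, against 35 to 75 with a median of 58.5 in Low males. Of 24 High mice, 5 exceeded the median of Low mice, 2 of 12 females and 4 of 12 males by the medians of their own gender. Htr7 averaged 52.0 ± 15.1 in High mice and 60.2 ± 10.5 in Low mice (SD, n = 24 each), a log2 difference of -0.21 ± 0.09 (SE), or 0.864-fold, with an unadjusted p of 0.0199 and an adjusted p of 0.412 by limma. The permutation of line labels within gender gave p = 0.0195 (two-sided). The difference was -0.21 (p = 0.0313) with the oligodendrocyte marker mean as a covariate, -0.21 (p = 0.0212) with the last-exon percent, and -0.18 (p = 0.0488) without the 3 libraries highest in pyramidal markers.

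**Figure D3:**
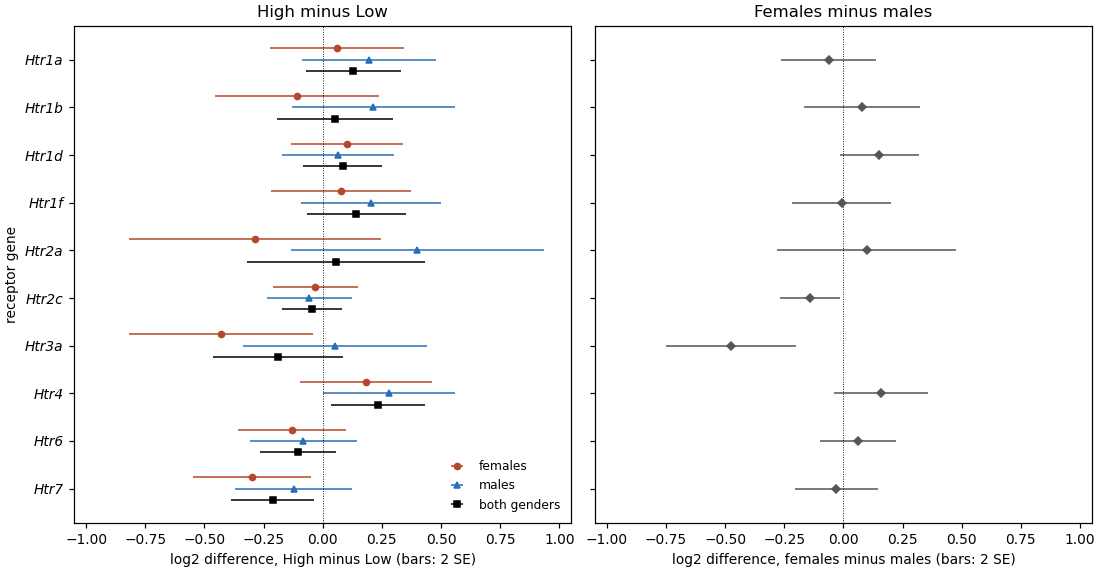
Log2 differences of the 10 receptor genes with bars of 2 SE: High minus Low in females, in males and over both genders on the left, females minus males on the right. The bars of the line difference over both genders leave out 0 for Htr4 (0.04 to 0.43) and Htr7 (-0.39 to -0.04), and those of the gender difference leave out 0 for Htr3a (-0.75 to -0.20) and Htr2c (-0.27 to -0.01).

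Within one gender, again no receptor was called. In females 2 of 10 had an unadjusted p under 0.05, Htr7 (-0.30 ± 0.12, p = 0.0195) and Htr3a, both with lower values in High females, beside 4.68% of all genes; 0.0261% of all genes were called. In males 1 of 10 did, Htr4 (0.28 ± 0.14, p = 0.0489), beside 6.93% of all genes, and 0.0% were called. For the difference between the female and the male line effect, no receptor had an unadjusted p under 0.05, beside 2.4% of all genes, and 0.0% of all genes were called. The widest of these differences were those of Htr2a (-0.69 ± 0.38, p = 0.0751) and Htr3a.

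The comparison of females with males gave the smallest p-value of any receptor. No receptor was called (0.0782% of all genes were), and 2 of 10 had an unadjusted p under 0.05, beside 4.21% of all genes. Htr3a had 1 to 19 with a median of 10 in females, against 5 to 42 with a median of 15 in males, and 7 of 24 females lay above the male median. Its log2 difference was -0.48 ± 0.14 (SE), or 0.719-fold, with an unadjusted p of 0.00114 and an adjusted p of 0.612 by limma; permuting gender labels within line gave p = 0.00167. Across 12 alternative settings that difference ran from -0.71 to -0.23 and its unadjusted p from 0.000556 to 0.00549, the highest p being that without the 3 libraries highest in pyramidal markers (difference -0.40). The 7 markers of caudal-type and CCK interneurons, which Htr3a followed from mouse to mouse, had a median log2 difference of -0.10 between females and males, with none at an unadjusted p under 0.05. Their summed value had a median of 1899 (1387 to 2347) in females and 1946.5 (1700 to 3483) in males. The 5 markers of somatostatin, NPY and nitric oxide interneurons all had lower means in females, with a median log2 difference of -0.14 and 2 at an unadjusted p under 0.05; their summed value had a median of 3513.5 (2498 to 5106) in females and 3969 (2189 to 5792) in males. The relation of Htr3a to that list over 48 mice had r = 0.37 (rho = 0.37, adjusted p = 0.126 over 160 relations). The 5 markers of leptomeninges that were tested all had higher means in females, with a median log2 difference of 0.23 and 3 at an unadjusted p under 0.05; the summed value of the list had a median of 606 (394 to 916) in females and 531.5 (345 to 767) in males. The part of these 3 lists in the difference was not tested.

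Htr2c had 1360 to 2270 with a median of 1649.5 in females, against 1060 to 2405 with a median of 1830 in males. The log2 difference was -0.14 ± 0.06 (SE), or 0.908-fold (unadjusted p = 0.0322, adjusted p = 0.982 by limma; permutation p = 0.0353). It was -0.16 (p = 0.0164) without the 3 libraries highest in pyramidal markers. The other 8 receptors had gender differences between -0.06 and 0.16 on the log2 scale, that of Htr4 being the highest at 0.16 ± 0.10 (p = 0.115).

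Exon values asked whether 1 exon of a receptor differed between the lines in another way than the rest of its gene. Of the 7 receptors with enough exons (Htr1f, Htr2a, Htr2c, Htr3a, Htr4, Htr6 and Htr7), none was called for exon usage between the lines by limma's diffSplice, beside 0.51% of 14702 genes. No Simes p was under 0.05 before adjustment (5.32% of all genes had one), the smallest being 0.129 for Htr4, and all 7 adjusted p-values were 0.997. For Htr2c the 201-base exon averaged 15.8 ± 12.0 in High mice and 15.5 ± 8.77 in Low mice (SD, n = 24 each). The last exon of Htr4 averaged 157 ± 41.7 in High mice and 132 ± 27.2 in Low mice, beside 175 and 145 for the whole gene.

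Within the groups, the values of some receptors moved with the last-exon percent of the libraries. Over 48 libraries, as deviations from group means, 5 of 10 receptors had a Pearson r with the last-exon percent at an adjusted p under 0.05 (5e-05 to 0.0399), all negative. In a limma fit over all genes with that percent as a term, the slopes of 5 of 10 receptors were called, all negative. Of all genes tested, 39.9% were called in that fit and 21.9% with a negative slope, so such relations were common among all genes. The relation was tightest for Htr1b (r = -0.80, rho = -0.69, permutation p = 1e-05 for each, the smallest that 100000 resamples give). It followed for Htr6 (r = -0.62, rho = -0.62, p = 1e-05 and 2e-05) and Htr2a (r = -0.62, rho = -0.59, p = 2e-05 and 6e-05). Without the 2 libraries farthest from the median of that percent, r was -0.70 for Htr1b, -0.65 for Htr6 and -0.56 for Htr2a. Weaker relations were those of Htr1a (r = -0.41, p = 0.0067; rho = -0.38, p = 0.00945) and Htr4 (r = -0.37, p = 0.02; rho = -0.19, p = 0.214), and that of Htr4 did not hold by rank. Htr2c had r = -0.01 (p = 0.948; rho = -0.02, p = 0.904), but its exons before the last had r = -0.73 and rho = -0.68 (p = 1e-05 for each).

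**Figure D4:**
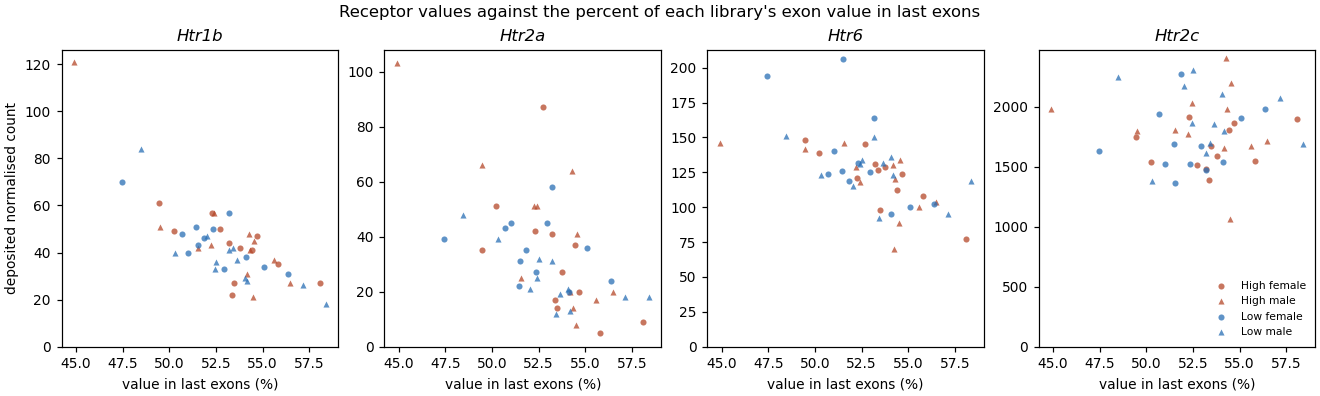
Deposited normalised count of Htr1b, Htr2a, Htr6 and Htr2c (vertical axes, from 0) against the percent of each library's exon value in last exons (horizontal axes), 1 point per mouse in 4 groups. Values of Htr1b, Htr2a and Htr6 fall as that percent increases from 44.9% to 58.4%, and those of Htr2c do not.

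Receptors also followed one another. Of 45 pairs of receptors, 4 were related at an adjusted p under 0.05 (0.00045 to 0.016), all positively. No share over all gene pairs stands beside this count, so it cannot be read as particular to the receptors. Htr1b and Htr2a had r = 0.67 (p = 1e-05) and rho = 0.66 (p = 2e-05), Htr1b and Htr6 had r = 0.48 (p = 0.00063) and rho = 0.49 (p = 0.00052), and Htr2a and Htr6 had r = 0.45 (p = 0.00142) and rho = 0.51 (p = 0.00044). Without the 2 libraries farthest from the median, r was 0.70, 0.52 and 0.54 for these 3 pairs. Htr1a and Htr4 had r = 0.48 (p = 0.00141) and rho = 0.38 (p = 0.0129, adjusted p = 0.145). When the last-exon percent was also removed, none of these 4 pairs remained at an adjusted p under 0.05, and 1 other pair was related, Htr1b with Htr2c (r = 0.50, p = 0.00037, adjusted p = 0.0166; rho = 0.35, p = 0.017, adjusted p = 0.356), which did not hold by rank.

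Relations to cell type markers were tested for 10 receptors and 16 marker lists, which gave 160 relations. Of these, 9 had an adjusted p under 0.05 by Pearson's r (0.0016 to 0.037), all positive. How often other genes had such relations is not given here, so the count cannot be read as particular to the receptors. With markers shared by all spiny neurons, Htr6 had r = 0.63 (p = 4e-05) and rho = 0.66 (p = 1e-05), Htr2a had r = 0.61 and rho = 0.62 (p = 1e-05 for each), and Htr1b had r = 0.48 (p = 0.00097) and rho = 0.44 (p = 0.00238). With markers of direct-pathway spiny neurons, Htr2a had r = 0.55 (p = 0.00013) and rho = 0.54 (p = 0.00018), and Htr6 had r = 0.44 (p = 0.00208) and rho = 0.46 (p = 0.00127). With the last-exon percent also removed, the relation to all spiny neurons had r = 0.46 (adjusted p = 0.0448) and rho = 0.52 (adjusted p = 0.0172) for Htr6, and r was 0.37 without the 2 farthest libraries. For Htr2a it had r = 0.44 (adjusted p = 0.0448) but rho = 0.31 (adjusted p = 0.203), so it did not hold by rank. Its r was 0.31 without those libraries. The relation of Htr2a to direct-pathway neurons remained, with r = 0.52 (adjusted p = 0.0088) and rho = 0.55 (adjusted p = 0.0112). Without the 2 farthest libraries of that list its r was 0.53. The relations of Htr1b to all spiny neurons and of Htr6 to direct-pathway neurons were no longer at an adjusted p under 0.05, while Htr1b with astrocyte markers, not called before, had r = 0.48 (adjusted p = 0.025) and rho = 0.51 (adjusted p = 0.0172).

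The remaining relations joined single receptors with other marker lists. Htr1a followed markers of cholinergic interneurons (r = 0.55, p = 0.00012; rho = 0.51, p = 0.0004) and of septal neurons (r = 0.52, p = 0.00035; rho = 0.46, p = 0.0019). Htr2c followed astrocyte markers (r = 0.58, p = 8e-05; rho = 0.62, p = 1e-05), and r was 0.58 also with the last-exon percent removed. Read by parts of the gene, the last exon of Htr2c had r = 0.57 (adjusted p = 0.00215 over 34 relations) with astrocyte markers, and the exons before it had r = 0.34 (adjusted p = 0.0834). The difference between these 2 values was not tested. The last exon also followed indirect-pathway markers (r = 0.41, adjusted p = 0.0381), but not by rank (rho = 0.29, adjusted p = 0.126). With pyramidal markers it had r = -0.46 (adjusted p = 0.0197) and rho = -0.37 (adjusted p = 0.0456). By rank alone it followed cholinergic markers (adjusted p = 0.0318). The same held for somatostatin, NPY and nitric oxide interneurons (adjusted p = 0.0318) and serotonergic neurons (adjusted p = 0.0456). Of the 5 serotonergic markers only Slc18a2 passed the expression filter, so that last relation is to 1 gene. The earlier exons followed markers of cholinergic interneurons (r = 0.55, adjusted p = 0.00119, and rho = 0.49, adjusted p = 0.00739). They also followed those of all spiny neurons (r = 0.47, adjusted p = 0.0116, and rho = 0.51, adjusted p = 0.00646). For direct-pathway neurons they had r = 0.43 (adjusted p = 0.0197) and rho = 0.42 (adjusted p = 0.0238). These earlier exons had r = -0.73 with the last-exon percent. No relations with that percent removed are given for the parts of the gene. Htr3a followed markers of caudal-type and CCK interneurons (r = 0.48, p = 0.00082; rho = 0.48, p = 0.00056), but r was 0.37 without Low male 6 and High male 1, the libraries farthest from the median of that list. With the last-exon percent removed, Htr3a with that list had r = 0.45 (adjusted p = 0.0419) but rho = 0.39 (adjusted p = 0.0948). Htr1a with cholinergic markers then had r = 0.48 (adjusted p = 0.025) but rho = 0.42 (adjusted p = 0.0662). With septal markers Htr1a then had r = 0.54 (adjusted p = 0.0112) and rho = 0.49 (adjusted p = 0.024). Without the 2 farthest libraries of each list, r was 0.49 and 0.54 for Htr1a with cholinergic and septal markers, 0.58 for Htr2c, 0.57, 0.54 and 0.42 for Htr6, Htr2a and Htr1b with all spiny neurons, and 0.58 and 0.46 for Htr2a and Htr6 with direct-pathway neurons. Htr1d, Htr1f, Htr4 and Htr7 had no relation at an adjusted p under 0.05 by Pearson's r.

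**Figure D5:**
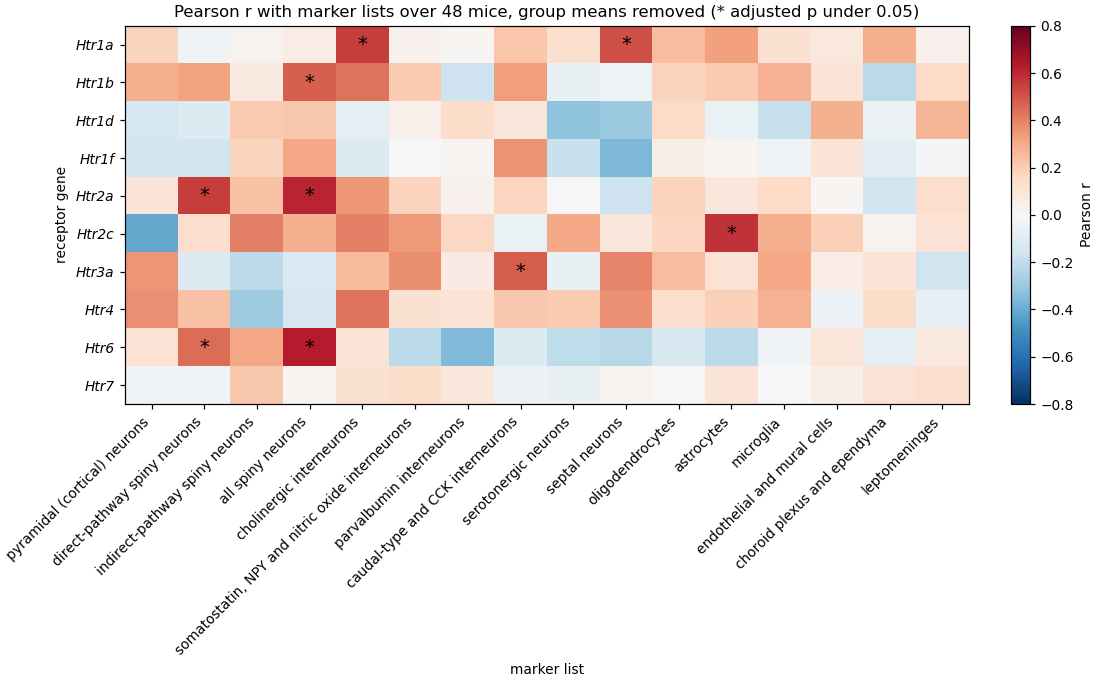
Pearson r between each receptor gene (rows) and the mean of each marker list (columns) over 48 mice with group means removed; stars mark an adjusted p under 0.05 over 160 relations. The 9 starred cells are all positive and belong to Htr1a, Htr1b, Htr2a, Htr2c, Htr3a and Htr6.

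For each receptor the most similar genes by Spearman's rho were taken among 11574 genes; as the highest of many, they carry no test. Htr6 was most like Adcy5, the main adenylyl cyclase of striatum (rho = 0.81), Cpne5 (0.80) and Rgs8, a regulator of G protein signalling (0.79). Htr2a was most like Dlg3, a synaptic scaffold (0.81), Abhd2 (0.80) and Cnksr2 (0.80), and Htr1b most like Zc3h7b (0.83), Tmem164 (0.83) and Klf9, a zinc-finger transcription factor (0.82). Htr2c was most like Rfx3, a transcription factor of ciliated cells (0.83), Stag2, a cohesin subunit (0.82), and Oat, ornithine aminotransferase (0.82).

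The other receptors had looser neighbours. Htr4 was closest to 1700025G04Rik (rho = 0.68), Adra2b, an adrenergic receptor (0.67), and Tmem237 (0.67). Htr1a was closest to Fam163b (0.67), Champ1 (0.67) and Erlin2 (0.66), and Htr1f to Reln, a secreted protein of interneurons (0.68), Hspbap1 (0.58) and Sel1l3 (0.54). Htr3a was closest to Podxl2 (0.61), Ino80b (0.60) and Olfm2 (0.59). The loosest were those of Htr1d, with Zfp560 (0.52), P4ha1 (0.50) and Serpina9 (0.48), and of Htr7, with Alg1 (0.46) and Lap3 (0.45).

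Genes that make, carry and break down serotonin, and the partners of its receptors, were taken from 7 lists. No gene of these lists was called between the lines. Of 11 genes for serotonin synthesis, transport and breakdown, 7 were tested and 1 had an unadjusted p under 0.05. It was Ddc, the decarboxylase that completes serotonin and dopamine synthesis, which averaged 402 ± 92.8 in High mice and 329 ± 91.8 in Low mice (SD, n = 24 each; log2 difference 0.29 ± 0.10 SE, p = 0.00507, adjusted p = 0.262 by limma). Slc29a4, a low-affinity monoamine transporter, averaged 67.7 ± 19.5 in High mice and 59.1 ± 17.4 in Low mice (p = 0.11). Tph2 averaged 3.08 ± 1.98 in High mice and 4.58 ± 2.84 in Low mice, and Slc6a4 averaged 1.42 ± 1.44 in High mice and 0.71 ± 0.91 in Low mice, both too low to be tested. Of the receptors set aside, Htr5a was tested and averaged 61.5 ± 18.9 in High mice and 63.2 ± 14.1 in Low mice (p = 0.552).

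Among Gi/o partners, 8 of 9 genes were tested and 0 had an unadjusted p under 0.05. Kcnj3, a subunit of the potassium channels that Gi/o receptors open, averaged 170 ± 34.7 in High mice and 151 ± 41.1 in Low mice (p = 0.0503), and Gnai3, a Gi subunit, averaged 344 ± 54.3 in High mice and 315 ± 38.5 in Low mice (p = 0.0526). Among 8 Gq partners, 1 had an unadjusted p under 0.05, Prkcb, a protein kinase C, at 3837 ± 345 in High mice and 3618 ± 335 in Low mice (p = 0.0311, adjusted p = 0.468 by limma). Gna14, a Gq-class subunit, averaged 22.7 ± 6.18 in High mice and 26.0 ± 7.88 in Low mice (p = 0.143).

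None of the 8 Gs and Golf partners had an unadjusted p under 0.05. Prkar2b, a regulatory subunit of protein kinase A, averaged 3676 ± 399 in High mice and 3457 ± 381 in Low mice (p = 0.0604), and Adcy3 averaged 1171 ± 183 in High mice and 1228 ± 157 in Low mice (p = 0.198). None of the 10 proteins that bind or desensitise these receptors had one either. The smallest p-values there were those of Grk3, a receptor kinase, at 798 ± 189 in High mice and 730 ± 147 in Low mice (p = 0.176), and of Arrb2, an arrestin, at 755 ± 127 in High mice and 810 ± 157 in Low mice (p = 0.182). Of the 3 adenosine-to-inosine editing enzymes, Adarb1 averaged 1432 ± 146 in High mice and 1356 ± 153 in Low mice (p = 0.075), and Adarb2 averaged 248 ± 48.6 in High mice and 269 ± 45.6 in Low mice (p = 0.107).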

How the data were processed

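Poly(A) RNA of the accumbens shell was sequenced in 48 mice. The authors deposited normalised counts per gene and per exon, rounded to whole numbers and treated here as a score, since raw counts would not be scaled to nearly equal totals. STAR 2.4.0, edgeR 3.4.2, R 3.0.2, FastQC and CASAVA are named, with build mm9, in the submitters' processing notes; the normalisation, counter, annotation and strand setting are not given in the sources used here. Because the values are normalised, no count model was fitted, counting depth is unknown and no counting intervals are given.

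Values were analysed with limma 3.58.1 in R 4.3.3 as log2(value + 0.5 ppm) with a mean-variance trend, on the 15350 genes that reached 1 ppm in 12 or more libraries. A single fit covered all 48 libraries, with 4 group means; the threshold for a call was an adjusted p (Benjamini-Hochberg) under 0.05. Fold changes on this scale understate the change of low genes. Variability was tested on each mouse's absolute distance from its group's median. For exon usage, diffSplice took exons that reached 0.1 ppm in 12 libraries, with a pseudocount of 0.05 ppm. The limma contrasts, the variability test and diffSplice were checked on simulated data. The variability test recovered few of the simulated differences. For its part diffSplice, which takes 1 spread per gene, called too many unchanged genes where exons differed in spread.

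Relations used deviations from group means, with two-sided permutation within groups (100000 resamples). Exons were matched to GENCODE M21 by their spacing, and no coordinate was converted between builds. Promoter entries of RefSeq matched 8 of 9 members looked up. The last-exon percent used genes with 4 or more listed exons.

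The receptors and the gene lists were chosen with earlier results of these data known. Genes were named by a rule: all 10 receptors, the called genes and up to 2 genes of smallest line p from each of 7 pathway lists, Tph2 and Slc6a4, and the 3 genes most like each receptor (mean of 5 ppm or more); 1 gene named by this rule is not reported here. Alternatives covered pseudocount, filter, scaling, library weights, covariates and left-out libraries; the use of the last-exon percent was added after the data were seen, as were a count of marker relations by Spearman's rho in place of Pearson's r, the permutation of gender labels and the slope on the last-exon percent over all genes. Replicate numbers only name mice, and every column was matched to 1 library.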

Additional observations from a re-analysis of the deposited data

How the results depend on the processing

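No receptor was called under any of the alternatives run, for any of the 5 contrasts, for variability or for exon usage. At the filter of 5 ppm, 4 of the 10 receptors were tested. Of 640 log2 differences recomputed under alternatives, 628 kept their direction and 12 reversed. With the oligodendrocyte marker mean as a covariate, Htr2c in females (High minus Low) was 0.00768. Without the 3 libraries highest in pyramidal markers, the line difference of Htr1d in males was -0.0408, and females minus males was 0.00138 for Htr1a and 0.0253 for Htr1f. With the last-exon percent as a covariate, the line difference of Htr1b in females was 0.0387 and the difference between the female and male line effects of Htr6 was 0.0559. Without the 4 libraries with a last-exon percent farthest from the median, the line difference of Htr3a in males was -0.0218, the difference between the line effects was 0.0288 for Htr4 and 0.0872 for Htr6, and females minus males was 0.0234 for Htr1f. Without High male replicate 1, High minus Low was -0.00855 for Htr1b and -0.00965 for Htr2a. The cause of these reversals was not tested; each of the 12 was, in the reported fit, a difference smaller than its SE.

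The line difference of Htr4 stayed between 0.19 and 0.27 and that of Htr7 between -0.23 and -0.15, each with an unadjusted p under 0.05 in every setting that tested it. Of all genes, 43 were called between the lines, but 80 with array weights, 77 with the last-exon percent and 67 with the oligodendrocyte mean as a covariate, and 21 without the 4 libraries of extreme last-exon percent. In females 4 were called, but 7 with array weights, 2 with no filter or without those 4 libraries, and 1 in a fit of females alone; for variability 9, but 28 with deviations from the mean; for exon usage 75, but 34 with a filter of 0.5 ppm and 37 with a pseudocount of 0.2 ppm. Relations to marker lists numbered 10 by Spearman's rho and 8 with the last-exon percent also removed. No paired analysis was possible because the replicate numbers follow the order of listing and tie no mice together. Values of Htr3a, Htr1f and Htr2a lie near the filter, so small differences in them could not be measured.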
